A study of Salvia dorisiana with 6 samples.

Results

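The transcripts described here belong to the supply of prenyl diphosphates in *Salvia dorisiana*: the steps of the plastidic methylerythritol phosphate (MEP) pathway, isopentenyl diphosphate isomerase, and a pair of prenyltransferases annotated as lavandulyl diphosphate synthase. They were taken by cluster name (7 transcripts) and by the text of the closest BLAST hit (3 more), which gave 10 of the 85 transcripts in the deposited table. Of the 10, 7 belong to the MEP pathway. *S. dorisiana* is a sage whose leaf trichomes make methylperillate, a monoterpenoid with a methylated carboxyl group, and the study compared plant parts to find the genes of its biosynthesis. RNA was sequenced from 6 parts with 1 library each: isolated trichomes, roots, stem, leaves <3 cm, leaves 3–10 cm and leaves >10 cm. All plants were untreated greenhouse plants propagated by cuttings, and the trichomes were the heads of all trichome types together, collected from apical buds and young leaves. Levels are the authors' RPKM, fragments scaled to the length of the transcript and to the mapped fragments of the library.

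The MEP pathway runs in plastids and joins pyruvate and glyceraldehyde 3-phosphate into isopentenyl diphosphate and dimethylallyl diphosphate, the units from which monoterpenes, diterpenes, carotenoids and the side chain of chlorophyll are built. Prenyltransferases join these units into longer diphosphates, and terpene synthases such as limonene synthase use the products. In glandular trichomes of the mint family the pathway is known as the main source of units for monoterpenes. In green tissue the same pathway supplies photosynthetic pigments.

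Each tissue has 1 library, so differences between tissues have no replicate check and no test was possible. The 95% intervals given cover counting error only. The study had kept transcripts with over 1000 RPKM in trichomes and with correlations above 0.6, across these libraries, with the limonene synthase SdLS and with the pathway metabolites. A high level in trichomes is therefore a condition of being listed, and says nothing further about the 10 transcripts. Mapped fragments, inferred from RPKM as the smallest totals that fitted, were between 3314347 in trichomes and 19415968 in leaves 3–10 cm. In whole organs, fewer trichome cells and less RNA per cell cannot be told apart.

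The list covered the pathway in most but not all of its steps. The pathway enters through 1-deoxy-D-xylulose 5-phosphate synthase (DXS, clust158), and continues through the reductoisomerase (DXR, clust1689 and clust5857), the kinase of the diphosphocytidyl intermediate (CMK, clust2269), the cyclodiphosphate synthase (MDS, clust4785), the hydroxymethylbutenyl diphosphate synthase (HDS, clust133) and the reductase (HDR, clust1630). The step between DXR and CMK, which adds a cytidyl group, had 0 listed transcripts. A search by HMG-CoA enzyme domain and by names of mevalonate, hydroxymethylglutaryl and acetoacetyl enzymes found no transcript of the mevalonate pathway (0 of 85). It did not cover the thiolase domain of acetyl-CoA acetyltransferases. The paper reports that domain as enriched in its selected set and assigns it to the mevalonate pathway. No transcript with a trans-prenyltransferase domain (0 of 85), the family of geranyl diphosphate synthases, was listed. Other transcripts of the plant were not analysed here.

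The annotation of clust1689 was divided. Its closest BLAST hit was named DXS, yet all of its enzyme-specific PFAM domains were those of DXR, and it is described here as DXR. The shorter clust5857, with a recovered coding length of 627 nt against 1425 nt for clust1689, was named DXR by BLAST and had no PFAM domain. Because the authors' mapping allowed a read to hit several transcripts, levels of this pair, and of the pair of prenyltransferases, may share reads.

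In trichomes all 7 MEP transcripts were abundant, between 1374 RPKM for clust5857 and 6891 RPKM for HDR. The last 2 steps of the pathway, HDS and HDR, stood above the others in every library and together held between 52.4% (leaves <3 cm) and 58.9% (leaves >10 cm) of the summed MEP RPKM. The 10 transcripts took 4.05% of mapped fragments in trichomes, 0.420% in roots, 0.125% in stem, and 0.422%, 0.303% and 0.374% in leaves <3 cm, 3–10 cm and >10 cm.

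**Figure D1:**
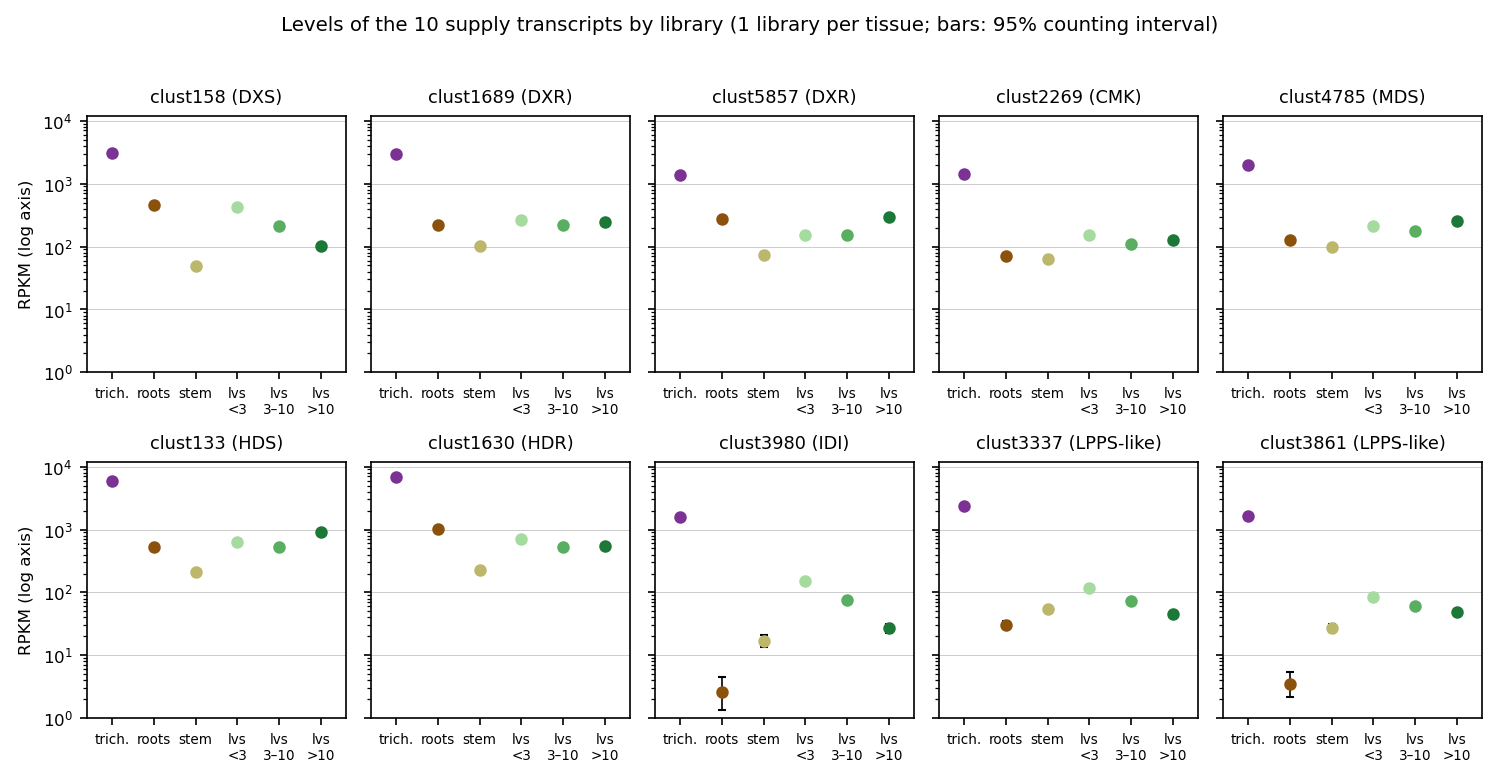
RPKM (log axis) of each of the 10 supply transcripts in the 6 libraries, 1 point per library, with 95% counting intervals as bars. Every transcript was highest in trichomes, and the 7 MEP transcripts were lowest in stem. IDI, clust3861 and clust3337 were lowest in roots, at 2.62, 3.53 and 30.2 RPKM.

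DXS joins pyruvate and glyceraldehyde 3-phosphate and is known as a step with strong control over flux through the pathway. Its transcript clust158 had 3103 RPKM in trichomes, 465 RPKM in roots, 48.4 RPKM in stem, and 425, 210 and 101 RPKM by increasing leaf size. It was the only MEP transcript whose level was lower in each larger class of leaf, and no counting intervals of its 6 libraries overlapped. The BLAST hit named it as isoform 2, and DXS isoforms of class 2 are known in other plants for specialised isoprenoids, in contrast to a photosynthetic class. The same BLAST name was given to clust1689, so it does not by itself assign a class, and the class of clust158 was not tested. The level of clust158 in roots exceeded that in every leaf library.

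DXR rearranges and reduces the product of DXS to methylerythritol phosphate. The longer transcript clust1689 had 2963 RPKM in trichomes, 223 RPKM in roots, 103 RPKM in stem, and 269, 217 and 245 RPKM in the leaf libraries by increasing size. Its values in roots and in leaves 3–10 cm had overlapping intervals. The shorter clust5857 had 1374 RPKM in trichomes, 276 RPKM in roots, 73.6 RPKM in stem, and 150, 153 and 297 RPKM by increasing leaf size, so that it was highest in the largest leaves among the 5 libraries other than trichomes. For clust5857 the intervals overlapped between leaves <3 cm and 3–10 cm and between roots and leaves >10 cm. The ratio of clust5857 over clust1689 was 0.464 in trichomes (95% interval 0.445 to 0.483), 1.24 in roots (1.15 to 1.33) and 1.21 in leaves >10 cm (1.14 to 1.28), and it lay between 0.558 and 0.713 in the other 3 libraries.

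The middle steps phosphorylate and then cyclise the intermediate. CMK (clust2269) had 1413 RPKM in trichomes, 71.0 RPKM in roots, 63.2 RPKM in stem, and 155, 110 and 126 RPKM by increasing leaf size. MDS (clust4785) had 1973 RPKM in trichomes, 126 RPKM in roots, 98.0 RPKM in stem, and 209, 176 and 251 RPKM in the same leaf order. The pair was low in both roots and stem, where the intervals of CMK overlapped. CMK was the less abundant of the 2 in every library, at 0.502 to 0.739 times the level of MDS.

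HDS and HDR are iron-sulphur enzymes that open the cyclic diphosphate and reduce it to the 2 prenyl diphosphate units. HDS (clust133) had 5821 RPKM in trichomes, 520 RPKM in roots, 210 RPKM in stem, and 628, 520 and 910 RPKM by increasing leaf size. In leaves >10 cm it ranked 2 of the 85 listed transcripts. HDR (clust1630) had 6891 RPKM in trichomes, 1032 RPKM in roots, 229 RPKM in stem, and 703, 518 and 550 RPKM by increasing leaf size, and in roots it ranked 1 of 85. The ratio of HDS over HDR was 0.845 in trichomes (0.832 to 0.857), 0.504 in roots (0.488 to 0.520) and 1.65 in leaves >10 cm (1.61 to 1.70), while in leaves 3–10 cm it was 1.004 with an interval that included equality (0.982 to 1.03).

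The balance between the listed MEP transcripts therefore shifted between libraries. Transcripts of these steps outside the list, which was selected on trichome level, are not counted. HDR made up 29.3% of the summed MEP RPKM in trichomes, 38.0% in roots, 27.7% in stem, and 27.7%, 27.2% and 22.2% by increasing leaf size. DXS made up 13.2% in trichomes, 17.1% in roots, 5.85% in stem, and 16.7%, 11.0% and 4.08% by increasing leaf size. Among these transcripts, DXS thus took its smallest share in the largest leaves, where HDS took its largest, 36.7%. The sum of both DXR transcripts varied less than any of these, between 16.5% (leaves <3 cm) and 21.9% (leaves >10 cm). HDR was 2.22 times as abundant as DXS in trichomes and 2.22 times in roots, 4.74 times in stem, and 1.65, 2.47 and 5.45 times in leaves <3 cm, 3–10 cm and >10 cm.

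**Figure D2:**
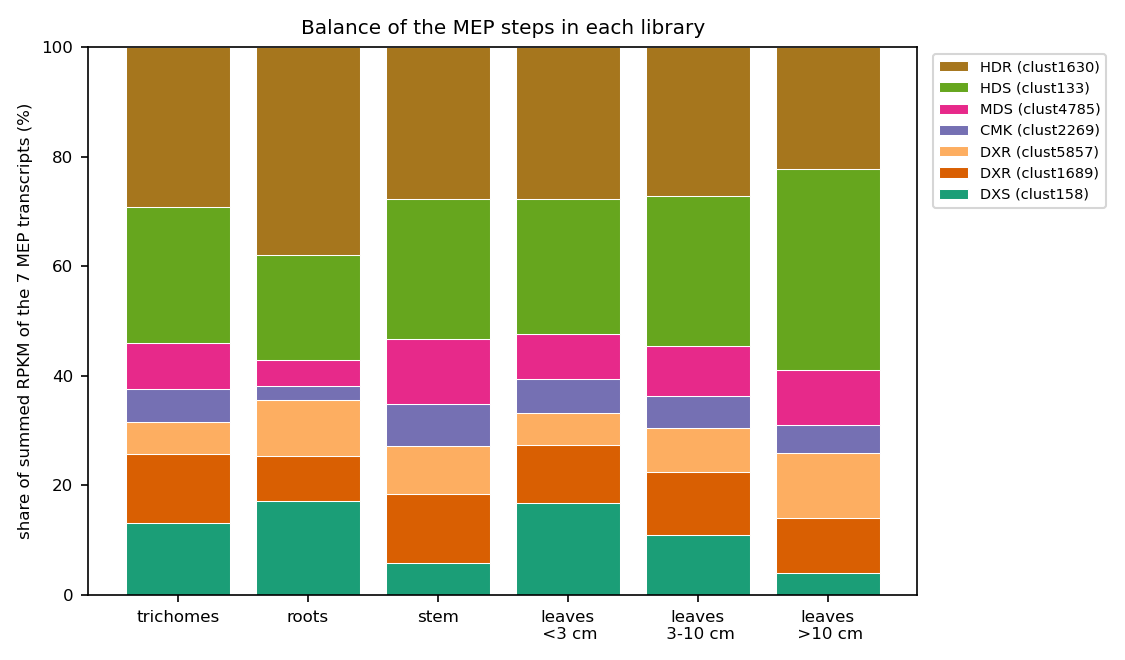
Share (%) of each of the 7 MEP transcripts in their summed RPKM, 1 bar per library, ordered from the entry of the pathway (bottom) to its end (top). DXS shrank to 4.08% and HDS reached 36.7% in leaves >10 cm, and HDR reached 38.0% in roots.

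Isopentenyl diphosphate isomerase (IDI) interconverts the 2 prenyl diphosphate units. Its transcript clust3980 had 1572 RPKM in trichomes, 2.62 RPKM in roots, 16.9 RPKM in stem, and 151, 76.5 and 26.8 RPKM in leaves <3 cm, 3–10 cm and >10 cm. The root value rested on 12 fragments, with an interval of 1.36 to 4.58 RPKM. The level of clust3980 was lower in each larger class of leaf and lowest in roots, the library in which HDR ranked first of the list. The median of the listed transcripts in roots was 6.86 RPKM, and IDI transcripts outside the list are not counted. HDR was 4.38 times as abundant as IDI in trichomes (4.24 to 4.54) and 393 times in roots (225 to 762). In stem it was 13.5 times as abundant, and in leaves <3 cm, 3–10 cm and >10 cm it was 4.65, 6.77 and 20.5 times as abundant.

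Lavandulyl diphosphate synthase, known from lavender, joins 2 dimethylallyl diphosphate units in an irregular, branched way and belongs to the cis-prenyltransferase family. Both transcripts so annotated carried the corresponding PFAM domain, which by itself does not tell an irregular enzyme from other cis-prenyltransferases, such as those that make dolichols or neryl diphosphate. The first, clust3337, had 2368 RPKM in trichomes, 30.2 RPKM in roots, 54.3 RPKM in stem, and 118, 74.4 and 46.0 RPKM by increasing leaf size. The second, clust3861, had 1625 RPKM in trichomes, 3.53 RPKM in roots from 20 fragments, 27.0 RPKM in stem, and 86.0, 61.9 and 49.1 RPKM by increasing leaf size. The levels of both declined with leaf size, and they differed most in roots, where clust3337 was 8.55 times as abundant as clust3861 (5.38 to 14.3), against 1.46 times in trichomes (1.40 to 1.51). In leaves >10 cm the ratio was 0.937, and its interval of 0.815 to 1.08 included equality.

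The step between trichomes and the youngest leaves was alike across the MEP transcripts. In trichomes all 10 members were at least 2-fold higher than in leaves <3 cm, as were 95.3% of the 85 listed transcripts. The median log2 ratio of RPKM + 1 was 3.26 for the 10 and 3.35 for all 85. The MEP transcripts lay in a narrow range, from 2.87 for DXS to 3.46 for clust1689, whereas the prenyltransferases clust3337 and clust3861 were at 4.31 and 4.22, ratios of 20.0 (19.0 to 21.1) and 18.9 (17.7 to 20.2) before the pseudocount. IDI was at 3.37, beside the list.

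Between successive classes of leaf, the MEP steps other than DXS parted fully from IDI and the prenyltransferases only from leaves 3–10 cm to >10 cm. From leaves <3 cm to 3–10 cm, clust3861 had a ratio of 0.720, beside 0.714 for CMK, while IDI (0.507) and clust3337 (0.630) were lower. Between leaves <3 cm and 3–10 cm the median log2 ratio (3–10 cm over <3 cm) was -0.45 for the members and -0.56 for the list, and 1 member, DXS, was at least 2-fold lower, against 20% of the list. In leaves >10 cm, by contrast, 6 members were higher than in leaves 3–10 cm by any fold, all of them MEP transcripts, where 17.6% of the list were, and the median log2 ratios were 0.13 for the members and -0.98 for the list. The ratio was 1.94 for clust5857 (1.81 to 2.07), 1.75 for HDS (1.71 to 1.78) and 1.42 for MDS (1.34 to 1.51), which were the 3 highest of the 85. It was 1.14 for CMK, 1.13 for clust1689 and 1.06 for HDR (1.03 to 1.09).

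The remaining members went the other way in the largest leaves. DXS and IDI were at least 2-fold lower in leaves >10 cm than in leaves 3–10 cm, as were 49.4% of the list, with ratios of 0.481 (0.459 to 0.505) and 0.350 (0.297 to 0.411). The ratio was 0.619 for clust3337 and 0.793 for clust3861. Of the 10 members, 4 declined with each larger class of leaf (DXS, IDI and both prenyltransferases), against 76.5% of the list, and 5 MEP transcripts were lowest among the leaf libraries in leaves 3–10 cm, against 12.9% of the list. From the smallest to the largest leaves, 3 members were higher (clust5857, HDS and MDS), where 10.6% of the list were, and 3 were at least 2-fold lower, where 60% of the list were.

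**Figure D3:**
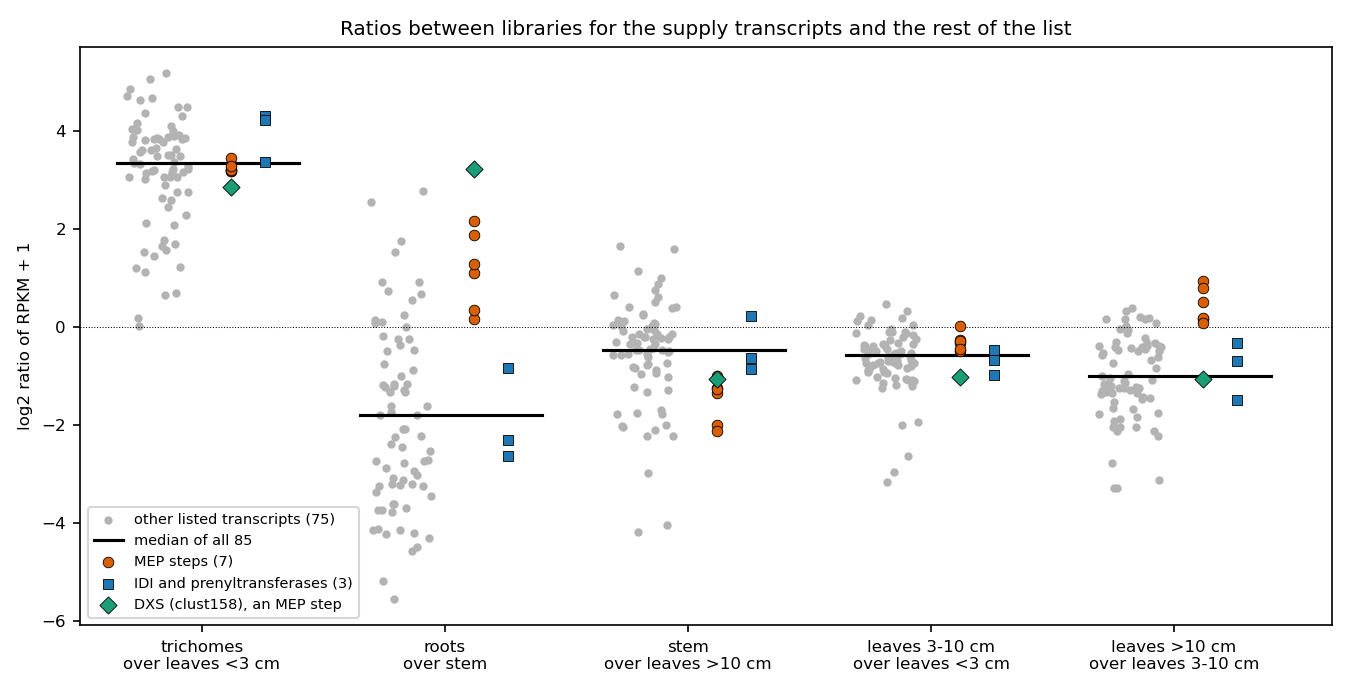
Log2 ratio of RPKM + 1 between libraries for the 7 MEP transcripts (circles, DXS as a diamond), for IDI and the 2 prenyltransferases (squares) and for the 75 other listed transcripts (grey points), with the median of all 85 as a line. In roots over stem all 7 MEP transcripts lay above 0 with DXS highest at 3.24, and in leaves >10 cm over leaves 3–10 cm the MEP transcripts except DXS lay above 0.

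The listed MEP transcripts had their lowest levels of the 6 libraries in stem. MEP transcripts outside the list are not counted. All 7 MEP transcripts were lowest there, where 16.5% of the list were lowest in stem, and their summed RPKM was 826, against 2480 in leaves >10 cm. Compared with leaves >10 cm, 6 members were at least 2-fold lower in stem, all MEP transcripts, against 27.1% of the list. HDS had the lowest ratio of the members, 0.231 (0.222 to 0.240), and CMK, at 0.502 (0.439 to 0.573), was just short of 2-fold. At a limit of 1.5-fold 9 members were lower in stem, against 42.4% of the list. These added CMK, IDI (0.631) and clust3861 (0.550), so that the count was no longer of MEP transcripts alone. The single member that was higher in stem, where 25.9% of the list were, was clust3337 at 1.18 times (1.02 to 1.36), and SdLS was at 1.32 times (1.28 to 1.38).

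In roots the MEP steps differed in their standing beside the leaves. The summed MEP RPKM was 2713 in roots and 2538 in leaves <3 cm, but HDR, DXS and clust5857 were higher in roots than in these leaves, whereas clust1689, CMK, MDS and HDS were lower. CMK and MDS were below all 3 leaf libraries, as were IDI and both prenyltransferases. HDS in roots was below leaves <3 cm and >10 cm, and its interval (507 to 532 RPKM) overlapped that of leaves 3–10 cm (513 to 527 RPKM). All 7 MEP transcripts were higher in roots than in stem, where 23.5% of the list were, and 5 of them were at least 2-fold higher, against 11.8%. DXS had the highest ratio of all 85, 9.62 (8.93 to 10.4), followed among the members by HDR at 4.50 (4.31 to 4.71), clust5857 at 3.75 (3.32 to 4.25), HDS at 2.47 and clust1689 at 2.16. CMK was at 1.12 with an interval that included equality (0.957 to 1.32), and MDS at 1.28 (1.14 to 1.44). IDI and clust3861, at 0.155 (0.0771 to 0.285) and 0.131 (0.0779 to 0.208), were at least 2-fold lower in roots, as were 67.1% of the list, while clust3337, at 0.556 (0.464 to 0.664), was short of 2-fold. DXS and HDR were also the 2 members whose highest level outside trichomes was in roots, where 4.71% of the list had theirs.

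The users of the prenyl diphosphates were set beside these levels. SdLS had 22369 RPKM in trichomes, 455 RPKM in roots, 428 RPKM in stem, and 1817, 1016 and 323 RPKM in leaves <3 cm, 3–10 cm and >10 cm. The 13 listed terpene synthases, SdLS included, summed to 2.75 times the MEP RPKM in trichomes, 0.239 times in roots, 1.05 times in stem, and 1.77, 1.39 and 0.5004 times by increasing leaf size. With SdLS left out the same quotient was 1.80 in trichomes, 0.0714 in roots, 0.534 in stem, and 1.05, 0.859 and 0.370 by increasing leaf size. Both sums hold listed transcripts only, which were chosen for their level in trichomes and correlation with SdLS. Terpene synthases expressed mainly in other parts are therefore not counted, and the quotients do not compare supply with use in a whole organ. Among the listed transcripts, with or without SdLS, the summed MEP transcripts were the more abundant side in roots and in leaves >10 cm. The terpene synthases were so in trichomes and, by a small margin without SdLS, in leaves <3 cm. In stem and in leaves 3–10 cm the side turned to the MEP transcripts once SdLS was left out.

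Set against their own levels in trichomes, the 7 MEP transcripts kept a median of 10.8%, 7.81% and 8.91% by increasing leaf size, and IDI and the prenyltransferases a median of 5.29%, 3.81% and 1.94%. SdLS kept 8.12%, 4.54% and 1.44% in the same order. The remaining level of DXS was 2.26 times that of SdLS in leaves >10 cm and that of clust5857 was 15.0 times. In roots the MEP transcripts kept a median of 8.93%, with CMK lowest at 5.02% and clust5857 highest at 20.1%. IDI kept 0.167% and clust3861 0.217% there, and SdLS 2.04%. The median in roots was 0.234% for all listed transcripts and 0.112% for the listed terpene synthases. IDI and clust3861 were therefore near the list median in roots, and SdLS was well above it. The part of trichome content in these levels was not tested.

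**Figure D4:**
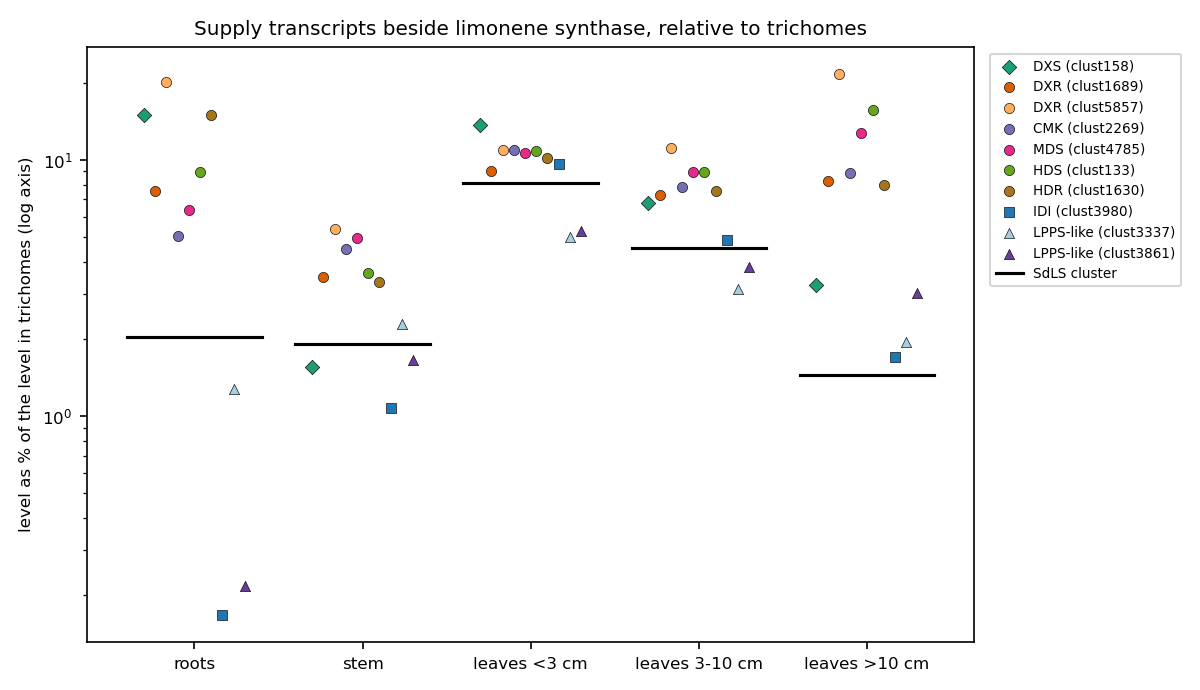
Level of each of the 10 supply transcripts as a percentage of its own level in trichomes (log axis) in the other 5 libraries, with SdLS as a black line. In roots and in leaves >10 cm all 7 MEP transcripts lay above SdLS, and in roots IDI, at 0.167%, and both prenyltransferases lay below it. The median of all listed transcripts in roots, 0.234%, was also below SdLS.

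Profiles were compared as a description, by the Pearson correlation of log2(RPKM + 1), with no test. The points share libraries, depth and the selection on SdLS, and with all 6 libraries the trichome library dominates. Over the 5 other libraries the 21 pairs of MEP transcripts had correlations of 0.27 to 0.93 (median 0.76), the 3 pairs of IDI and the prenyltransferases 0.86 to 0.96 (median 0.95), and the 21 pairs across these groups -0.44 to 0.80 (median 0.18). Correlations with SdLS on the RPKM scale, which had served in the selection, were 0.979 to 0.9996 over the 6 libraries. Without trichomes they were 0.976 for IDI, 0.956 for clust3337 and 0.810 for clust3861, and for the MEP transcripts they ranged from -0.366 for clust5857 and 0.0602 for HDS to 0.513 for DXS and 0.722 for CMK. The order depended on the scale, since on the log2 scale IDI was at 0.757, clust3861 at 0.527, CMK at 0.592 and DXS at 0.568, and the Spearman correlation was 0.6 for IDI, clust3861 and DXS alike.

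The nearest profiles of DXS were not those of other MEP steps. Over the 6 libraries they were SdPAOMT (r = 0.98), the perillic acid methyltransferase that makes methylperillate, and clust874 (r = 0.98), annotated as a kaurene, miltiradiene or sclareol synthase, a class of diterpene synthase. The same pair was nearest over the 5 libraries without trichomes, at 0.99 for clust874 and 0.96 for SdPAOMT. Like DXS, clust874 was high in roots for its stem level, with 118 RPKM in roots and 19.1 RPKM in stem, as was SdPAOMT, with 105 RPKM in roots and 14.4 RPKM in stem. For HDR, DXS and clust874 were nearest without trichomes (r = 0.91 and 0.85).

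For clust1689, clust5857 and HDS the nearest profiles were other MEP transcripts. HDS and clust1689 were each other's nearest without trichomes (r = 0.93), and HDS and HDR were nearest to clust5857 (0.86 and 0.81). Without trichomes the nearest profile of both MDS and CMK was clust628, a chloroplastic glucose-6-phosphate isomerase (0.97 and 0.96), which had 274 RPKM in leaves >10 cm. Over the 6 libraries MDS was nearest to CMK (r = 0.993), and clust628 was still nearest to MDS (r = 0.993). Without trichomes IDI stood closest to diterpene synthases, clust927 (r = 0.998) and clust70, annotated as copalyl diphosphate synthase (r = 0.998). Over the 6 libraries IDI was nearest to clust70 (r = 0.999) and to clust1812, a ketoacyl-ACP synthase (r = 0.998). All of these, like IDI, were under 10 RPKM in roots. Such a level was common in the list, whose median in roots was 6.86 RPKM. For clust3861 the nearest without trichomes were clust1111, a carotenoid cleavage dioxygenase (r = 0.9999), and clust458, named for cuticular wax synthesis (r = 0.999), and for clust3337 SdPOHDH and clust226 (both 0.99). Over the 6 libraries the neighbours were others. They were clust4450, a methyltransferase, and clust3938, a terpene synthase, for clust3861, and clust4242, a peroxisomal reductase, and clust5193, a nucleoside diphosphate kinase, for clust3337. These are correlations over 5 or 6 points and state likeness of profile alone.

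Of 4 listed transcripts of triose phosphate and pyruvate supply in plastids, picked by annotation, the phosphoenolpyruvate translocator clust2305 had 0.644 RPKM in roots. Like IDI, it was nearly absent there, but low root levels were common in the list, with a median of 6.86 RPKM. The aldolase clust2220 had 696 RPKM and the triosephosphate isomerase clust2916 had 197 RPKM in roots. The median log2 ratio of leaves >10 cm over leaves 3–10 cm was 0.19 for the MEP transcripts, -0.11 for these 4 and -0.98 for the list. The 4 went both ways, between -0.47 and 0.40, with clust2305 and clust628 higher in leaves >10 cm. Of the 4, clust628 alone was lowest in stem, as the MEP transcripts were.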

How the data were processed

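The authors mapped read pairs, separated with CASAVA 1.8.1 (named in the submitters' processing notes), with CLC Genomics Workbench to consensus open reading frames (minimum 600 nt) of trichome transcripts. Pairs counted once, strand was ignored, and a read could hit several transcripts. The authors deposited RPKM of 85 selected transcripts for 6 libraries. Their 2 correlation columns (with SdLS and with metabolites) were not used, and 0 RPKM columns belonged to other samples.

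Members and comparison lists were chosen with earlier results of these data known. Members were matched by cluster name and BLAST text, including the spelling "diphsophate" of the table. Besides the members, the named genes were SdLS, SdL7H, SdPOHDH and SdPAOMT and, per member, the 2 nearest profiles by correlation of log2(RPKM + 1), over 6 and over 5 libraries. SdL7H is named only here. Named for other reasons were the 4 transcripts of carbon supply. Ratios are of RPKM, and log2 ratios used a pseudocount of 1 RPKM, which understates low transcripts. No filter or test was applied, because each tissue has 1 library. Alternatives were another pseudocount or none, a minimum of 10 RPKM, centring on the list median, MEP transcripts alone, leaving out clust1689, a 1.5-fold limit, log2 values, and leaving out trichomes.

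Fragments were recovered from RPKM as whole numbers, with coding lengths in multiples of 3 of at least 600 nt. The search was revised several times after it failed on the real table and on simulated data, on which its penalty was also set. In its final form all values (510 of 510) lay within 0.001 of a whole fragment, with lengths from 609 to 2961 nt, and 30 of 30 simulated library totals were recovered. The totals are the smallest that fitted, and if the true ones were multiples the intervals would be too wide. Intervals of a level are exact Poisson, those of a ratio exact binomial (Clopper-Pearson), at 95%, and cover counting error only, since PCR copies were not marked. Python 3.11.15, numpy 2.4.6, pandas 2.3.3, scipy 1.17.1, numba 0.67.0 and matplotlib 3.10.9 were used.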

Additional observations from a re-analysis of the deposited data

How the results depend on the processing

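No paired analysis was possible because each tissue has 1 library. For the same reason no library could be left out of a tissue, and variation between plants is not known. Among the members, counting error was widest for IDI and clust3861 in roots (12 and 20 fragments). Changing or omitting the pseudocount moved no median log2 ratio of the members by more than the typical counting error of 1 member. That error was the median half-width of the members' own intervals, and no interval was computed for the median itself. Centring on the median of all 85 transcripts, a list chosen for trichome expression, gave -0.087 (trichomes over leaves <3 cm), 0.11 (leaves 3–10 cm over leaves <3 cm), 1.12 (leaves >10 cm over leaves 3–10 cm), 1.02 (leaves >10 cm over leaves <3 cm), -0.69 (stem over leaves >10 cm), 2.51 (roots over stem) and 4.55 (roots over trichomes), so that the sign turned in trichomes over leaves <3 cm (3.26 uncentred), leaves 3–10 cm over leaves <3 cm (-0.45), leaves >10 cm over leaves <3 cm (-0.32) and roots over trichomes (-3.84). With the MEP transcripts alone the medians were -0.31 (leaves 3–10 cm over leaves <3 cm), -0.13 (leaves >10 cm over leaves <3 cm), 1.30 (roots over stem, 0.73 with all members) and -3.48 (roots over trichomes). A minimum of 10 RPKM in both libraries, which leaves out IDI and clust3861 in roots, gave 1.20 (roots over stem) and -3.60 (roots over trichomes). Leaving out clust1689 gave 0.35 and -3.96 for the same comparisons, and raised the share of HDR to 33.5% in trichomes, 41.5% in roots, 31.7% in stem, and 31.0%, 30.7% and 24.6% by increasing leaf size. A 1.5-fold limit counted 3 members lower in leaves 3–10 cm over leaves <3 cm (1 at 2-fold), 2 higher in leaves >10 cm over leaves 3–10 cm (0 at 2-fold) 1 higher in leaves >10 cm over leaves <3 cm (0 at 2-fold), and 9 lower in stem over leaves >10 cm (6 at 2-fold). The median correlation with SdLS was 0.892 on the log2 scale and 0.505 without trichomes, where that of clust5857 changed sign to -0.366.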
